A study of Mus musculus and Homo sapiens with 10 samples.

Results

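Lysine 64 of histone H3 lies in the globular domain, close to the DNA that wraps the nucleosome, whereas lysine 27 lies in the flexible tail. Acetylation of lysine 27 (H3K27ac) is deposited largely by the related acetyltransferases p300 and CBP and is widely used to mark active promoters and enhancers. Acetylation of lysine 64 (H3K64ac) is also found at active regulatory regions, and acetylation in the globular domain is thought to loosen the contact of histone and DNA directly. The regions described here are those that the authors' caller gave exactly the same ends for both marks in mouse embryonic stem cells (mESC), so that the reads of both marks could be compared over the same bases.

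An island is a stretch of enriched windows of 200 bp joined by the caller. Chromosome, start and end were identical in the H3K64ac and H3K27ac lists for 1869 islands on the numbered chromosomes, which together spanned 2.91 Mb. They made up 3.34% (Wilson 95% interval 3.20 to 3.50%) of the 55876 H3K64ac islands and 1.55% (1.48 to 1.62%) of the 120421 H3K27ac islands on those chromosomes. A further 53 identical islands on X were left out by the rule. All lists of the series together held 632878 islands. The comparison used 4 libraries, 2 replicates for each mark, out of 10 in the series. All came from undifferentiated 46c cells, a stem cell line with a Sox1-GFP reporter grown without feeders in serum and LIF, at passages 25 to 28, and chromatin was cut with micrococcal nuclease before precipitation. The other mESC mark, H3K122ac, was mapped in the same cells and was used only to describe what else the islands carried. The deposited lists also count the reads of a background library, the same in both lists for each of the 1869 islands, and no source used here names that library.

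The authors merged the replicates of a mark before calling islands, so each island has 1 read count per mark and no replicate error. No test between the marks was therefore possible, and the values below are descriptions of 1 merged list per mark. Intervals of single ratios cover read counting error only, and reads copied by PCR are not independent molecules. Intervals of medians and shares treat islands as independent, although neighbouring islands share their libraries, and none covers the spread between cultures. Genes are not named and the cell type was not checked against marker genes, because no gene annotation of the mouse build of the files, mm9, was used here. The islands were chosen by their called ends, which rest on the reads of both marks against background, so every one of them was enriched in each list and the enrichment itself is no finding. The lowest folds over background, as the authors gave them, were 1.16 for H3K64ac and 1.08 for H3K27ac.

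In median enrichment the 1869 islands were close to the lists they came from. Their median H3K64ac fold was 2.55 (quartiles 1.90 and 3.62), and the median of the whole H3K64ac list was 2.42. Their median H3K27ac fold was 1.58 (quartiles 1.35 and 1.97), and that of the whole H3K27ac list was 1.49. The share of islands with a fold of 3 or more was 37.1% in H3K64ac, where the whole list had 36.2%, and 5.83% in H3K27ac, where the whole list had 4.44%. Lengths ran from 200 to 10000 bp with a median of 1400 bp, between the medians of the H3K27ac list, 1200 bp, and the H3K64ac list, 2600 bp. H3K64ac islands were joined across gaps of up to 600 bp and H3K27ac islands across gaps of up to 200 bp, which bears on which islands can have the same ends. Of all H3K64ac islands on numbered chromosomes, 27.2% met no H3K27ac island, 50.4% met 1 and 22.3% met more than 1. Among the 27719 pairs in which an island of each list met only the other, 6.74% had identical ends.

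Each island's reads were divided by the sum of reads in all islands of the same list, 38692934 for H3K64ac and 40473895 for H3K27ac, and the ratio of these shares, H3K64ac over H3K27ac, was taken on the log2 scale. On this scale the islands held a smaller share of the H3K64ac reads than of the H3K27ac reads. The median log2 ratio was -0.32 (95% interval of the median -0.34 to -0.28), a ratio of 0.804, with quartiles of -0.62 and 0.00. The ratio was below 1 on 1399 islands and above 1 on 470. Only 6 islands, 0.321% of the 1869, had a ratio of 2 or more, and 61 islands, 3.26%, had a ratio of 0.5 or less.

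The position of zero on this scale depends on the scaling. The fold in each list is the quotient of ChIP and background counts divided by 1 constant per list, here called the library ratio, which was 2.02 times as large for H3K27ac as for H3K64ac, while the reads in islands were 1.05 times as many. Scaling to the library ratio moves every log2 ratio up by 0.95, so that the median becomes 0.63, 402 islands (21.5%) have a ratio of 2 or more and 0 islands (0%) have a ratio of 0.5 or less. When the ratios were centred on their own median, 40 islands (2.14%) lay 2-fold or more above it and 3 (0.161%) lay 2-fold or more below it. With background reads taken off both marks, the median was -0.65, and among the 943 islands with a q-value of at most 1e-10 in both lists it was -0.18. Which mark was the more abundant on these islands can therefore not be told from the lists, and the rest of the account concerns how the islands differed among themselves.

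**Figure D1:**
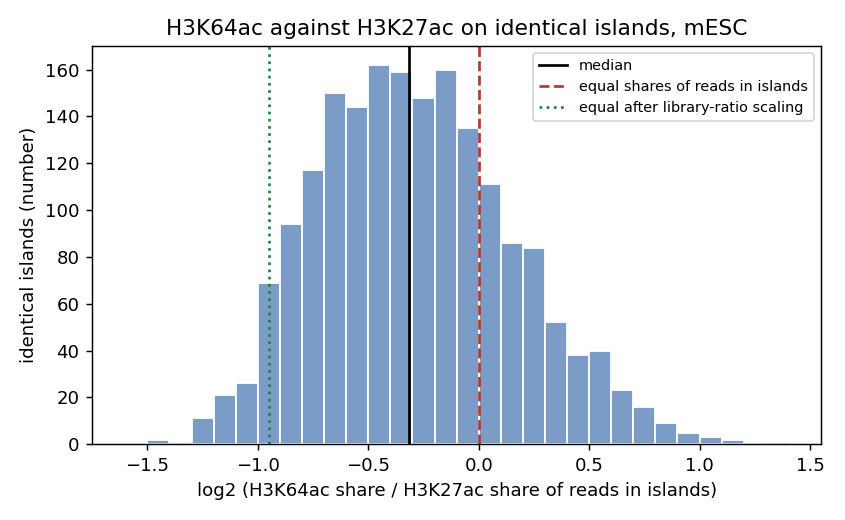
Number of identical islands (vertical axis) by log2 ratio of H3K64ac to H3K27ac shares of reads in islands (horizontal axis, bins of 0.1). The solid line is the median, -0.32, the dashed line marks equal shares, and the dotted line, 0.95 lower, marks where equal values would fall after scaling to the library ratio; most islands lie left of the dashed line and right of the dotted line.

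The ratios spread more widely than counting error. The SD over islands was 0.44 on the log2 scale, and the SD expected from the read counts alone had a median of 0.13 and a highest value of 0.28. The exact 95% interval of an island's ratio excluded the median ratio on 1012 islands (54.1%), lying above it on 541 and below it on 471. Median reads per island were 199 for H3K64ac (50 to 3495) and 278 for H3K27ac (57 to 2510), over a median of 80 background reads (3 to 787).

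Most of the variation in the ratio lay on the H3K64ac side. H3K64ac read density ran from 101 to 327 reads per kb between the 5th and 95th percentiles, a 3.24-fold range, with a median of 168. H3K27ac density ran from 164 to 306 reads per kb, a 1.86-fold range, with a median of 218. When the islands were ordered by their ratio, from the lowest quartile to the highest, median H3K64ac density was 119, 147, 184 and 261 reads per kb, while median H3K27ac density was 221, 212, 216 and 221. These values describe the ordering and do not support it, because the same reads set the ratio. Background reads make up a larger part of the H3K27ac signal: the median fold of 1.58 corresponds, on the authors' scaling, to 63.1% of H3K27ac reads at background level, against 39.3% for H3K64ac. With background taken off, in units of background-library reads per kb, the range between the same percentiles was 8.34-fold for H3K64ac and 4.97-fold for H3K27ac. H3K64ac was still the more variable mark, by a smaller margin in relative terms. The marks varied together: Spearman's rho of their read densities across the 1869 islands was 0.52, and 0.52 with background taken off. These islands share both libraries and the background counts.

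**Figure D2:**
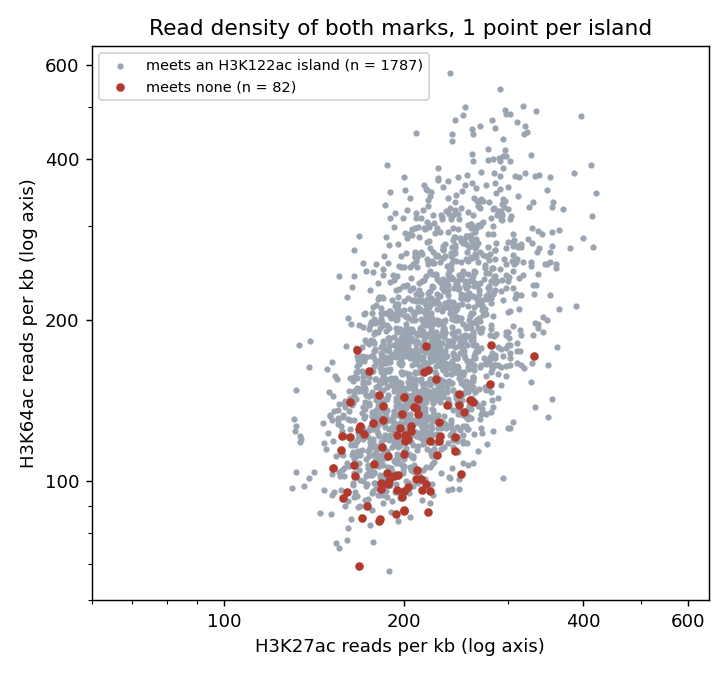
H3K27ac reads per kb (horizontal log axis) against H3K64ac reads per kb (vertical log axis), 1 point per identical island, with both axes over the same range. Points extend further along the H3K64ac axis (68 to 579) than along the H3K27ac axis (130 to 421), and the 82 islands that met no H3K122ac island (dark red) lie in the lower part, with a median of 119 H3K64ac reads per kb.

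H3K122ac, the acetylation of another globular-domain lysine, was not part of how the islands were chosen. An H3K122ac island was met, by at least 1 bp, on 1787 of the 1869 islands, or 95.6% (Wilson 95% interval 94.6 to 96.5%). The corresponding shares were 93.5% for all H3K64ac islands and 54.6% for all H3K27ac islands on numbered chromosomes, so the identical islands had a share near that of the H3K64ac list. On 503 islands (26.9%) the H3K122ac island had the same ends as well, and 1359 islands (72.7%) were wholly covered by H3K122ac. Where H3K122ac was met, the H3K122ac island was longer than the identical island on 929 islands, shorter on 337 and of equal length on 521.

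The 82 islands without H3K122ac stood low in H3K64ac relative to H3K27ac. Their median log2 ratio was -0.73 (95% interval -0.84 to -0.65), against -0.28 (-0.32 to -0.26) for the 1787 islands with H3K122ac, a difference of 0.45. A ratio of 0.5 or less was found on 14 of the 82 (17.1%) and on 47 of the 1787 (2.63%), and on 0 of either group when scaled to the library ratio. The highest log2 ratio among the 82 was 0.14. The difference lay mainly in H3K64ac, whose median density was 119 reads per kb without H3K122ac and 171 with it, while H3K27ac density was 200 and 218. The median length was 1400 bp in both groups, and background was 63.1 reads per kb without H3K122ac and 62.9 with it. Islands without H3K122ac were also weaker in H3K27ac fold, 1.43 against 1.59. Within islands below the median H3K27ac fold the difference in median log2 ratio was 0.43 (55 islands without H3K122ac), and within islands at or above it 0.35 (27 islands without). With background taken off the difference between the groups was 0.70. Islands with H3K122ac had the higher median on 18 of 19 chromosomes, but some of these comparisons rest on few islands without it. On chromosome 2, for example, 149 of 151 islands met H3K122ac.

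Among the islands with H3K122ac, the ratio was higher where that mark was stronger. From the lowest to the highest quartile of H3K122ac fold the median log2 ratio was -0.54, -0.36, -0.23 and -0.01. Median H3K64ac density over the same steps was 136, 155, 180 and 228 reads per kb. Median H3K27ac density was 206, 212, 226 and 238. With background taken off, in background-library reads per kb, the H3K64ac medians were 58.3, 82.0, 104 and 158. Those of H3K27ac were 25.5, 33.9, 41.3 and 56.6, so both marks rose with H3K122ac fold. Of the 40 islands that lay 2-fold or more above the median ratio, 29 were in the highest quartile of H3K122ac fold and 0 in the lowest. Spearman's rho between the log2 ratio and H3K122ac fold across the 1787 islands was 0.47. Background counts divide the H3K122ac fold, so H3K122ac reads per kb, which are not divided by them, were used as well. Median background was 66.4 reads per kb in the lowest and 55.0 in the highest quartile of H3K122ac fold, but 56.6 in the lowest and 69.3 in the highest quartile of H3K122ac reads per kb. With reads per kb, rho was 0.40, and 0.38 over the 503 islands with the same ends in all lists. With background taken off both marks, rho was 0.21 for H3K122ac fold and 0.34 for H3K122ac reads per kb. The medians with background taken off kept the same order by H3K122ac fold, at -0.84, -0.64, -0.53 and -0.45, over a narrower range. By quartile of H3K122ac reads per kb they were -0.90, -0.70, -0.52 and -0.22, beside -0.50, -0.36, -0.25 and -0.05 as deposited. The range was therefore not narrower by that measure.

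**Figure D3:**
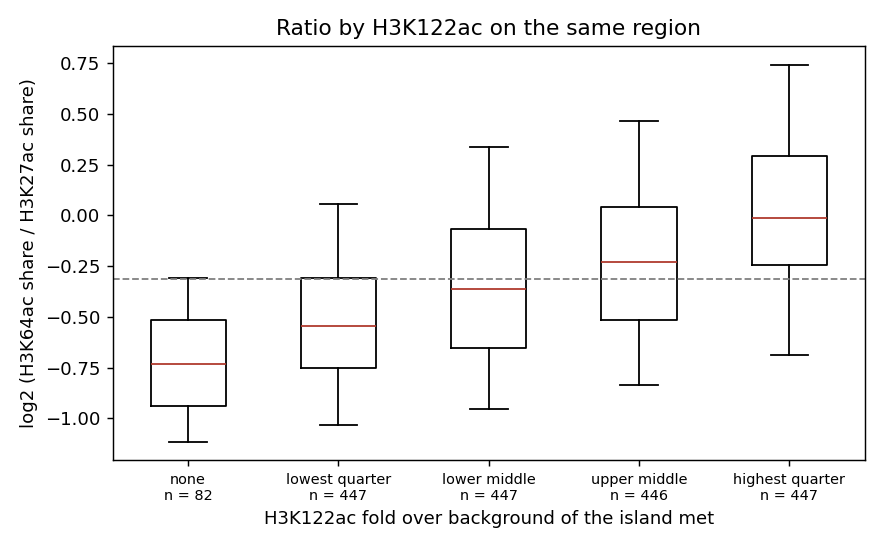
Log2 ratio of H3K64ac to H3K27ac shares (vertical axis) for islands that met no H3K122ac island and for quartiles of H3K122ac fold over background (horizontal axis). Boxes span the quartiles with the median as a line, whiskers the 5th and 95th percentiles, and the dashed line is the median of all islands; medians step up from -0.73 without H3K122ac to -0.01 in the highest quartile, and the boxes of neighbouring groups overlap.

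On the 503 islands identical in all lists, the marks could be compared pairwise over the same bases. The log2 ratio of H3K64ac to H3K27ac had an SD of 0.43 over these islands and a median of -0.31. The ratio of H3K122ac to H3K27ac had an SD of 0.57 and a median of -0.25, and that of H3K122ac to H3K64ac an SD of 0.50 and a median of 0.05. The ratio of H3K64ac to H3K27ac thus had the smallest SD of the pairs. The differences between these SDs were not tested, and the H3K122ac counts of these islands had a median of 235 reads. Background was not taken off here, and the lists differ in median fold, at 2.42 for H3K64ac, 1.49 for H3K27ac and 2.83 for H3K122ac. The part of background reads in these SDs was not tested, so they do not rank the marks by likeness.

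Longer islands held relatively more H3K64ac. The median log2 ratio was -0.29 on the 303 islands of 200 to 600 bp, -0.42 on 414 islands of 800 to 1000 bp and -0.41 on 392 islands of 1200 to 1400 bp. It was then -0.28 on 366 islands of 1600 to 2000 bp, -0.18 on 245 islands of 2200 to 3000 bp and 0.02 on 149 islands of 3200 to 10000 bp. The order was not even, since the shortest islands stood above the next 2 classes. Between islands of at least 2000 bp, the longest quartile, and those of at most 800 bp, the shortest, the difference was 0.23, and the longer islands had the higher median on 16 of 19 chromosomes. Here the H3K27ac side moved more: its median density was 208 reads per kb in the longest and 240 in the shortest quartile, while H3K64ac density was 182 and 178. With background taken off the difference was 0.59. In reads as deposited it was 0.18 among islands below the median background and 0.26 among those at or above it. Across all islands rho with length was 0.13. Median H3K27ac fold was 1.79 in the shortest and 1.47 in the longest quartile, and median H3K64ac fold was 2.80 and 2.65. Islands entered only if called in both lists. Whether the enrichment needed for a call changes with length, and its part in these differences, was not tested.

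**Figure D4:**
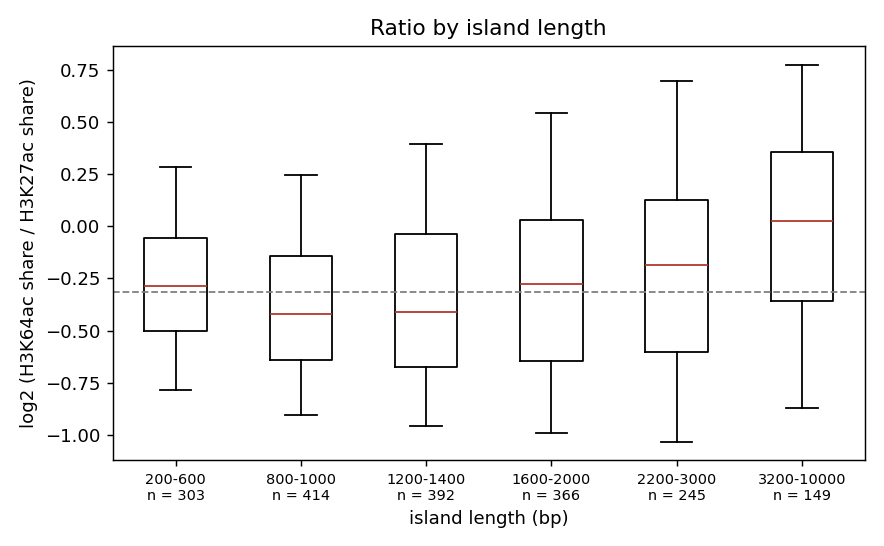
Log2 ratio of H3K64ac to H3K27ac shares (vertical axis) by island length in bp (horizontal axis). Boxes span the quartiles with the median as a line, whiskers the 5th and 95th percentiles, and the dashed line is the median of all islands; the lowest median, -0.42, is at 800 to 1000 bp, the highest, 0.02, at 3200 to 10000 bp, and the boxes overlap.

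Background density ran from 10.0 to 119 reads per kb, with a median of 62.9. The median log2 ratio was -0.20 in the lowest quartile of background and -0.37 in the highest, a difference of -0.17. This order turned when background was taken off the reads of both marks, with a difference of 0.45, and it was -0.030 among the 943 islands with a q-value of at most 1e-10 in both lists, so the sign and size of the relation with background depend on the measure.

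Chromosomes differed little. The median log2 ratio was below 0 on 19 of 19 chromosomes, also on 19 with background taken off and on 0 when scaled to the library ratio. It ranged from -0.48 (95% interval -0.56 to -0.33, 78 islands) on chromosome 18 to -0.20 (-0.43 to -0.11, 83 islands) on chromosome 8. The difference was 0.28 (approximate 95% interval 0.08 to 0.48), an interval that makes no allowance for picking the extremes of 19. The interval of chromosome 18 was the only one that did not reach the median of all islands. The SD of the chromosome medians was 0.07, against 0.44 over islands.

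**Figure D5:**
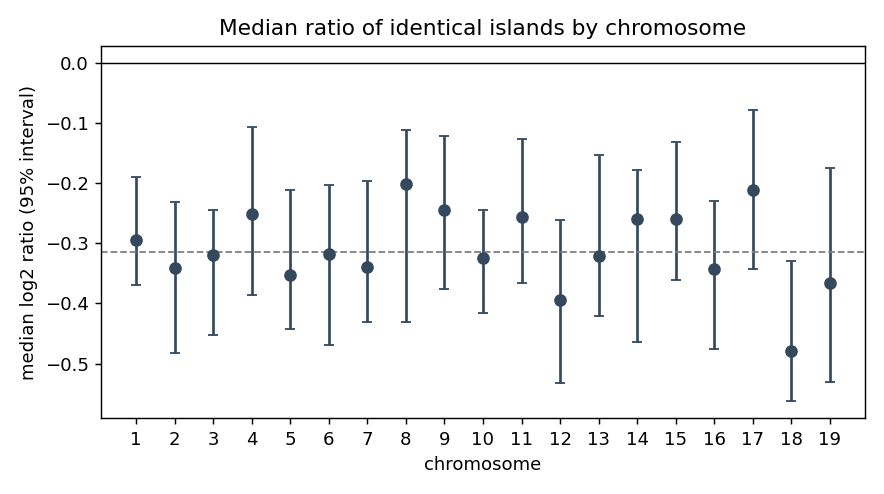
Median log2 ratio of identical islands (vertical axis) on each numbered chromosome (horizontal axis), with order-statistic 95% intervals as bars and the median of all islands as a dashed line. The chromosome medians lie between -0.48 and -0.20, and every interval but that of chromosome 18 reaches the dashed line.

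Individual islands are given in 1-based mm9 coordinates. At chr13:35828001-35833000, the highest ratio of the islands with at least 100 reads in each list and 10 in background, 2896 H3K64ac reads stood over 1197 H3K27ac reads and 207 background reads. Its ratio of shares was 2.53 (exact 95% interval 2.37 to 2.71), and its density of 579 H3K64ac reads per kb was the highest of all 1869 islands. Its H3K27ac density, 239 reads per kb, was below the upper quartile of all islands, 250.0. The H3K122ac island there had the same ends, 1962 reads and a fold of 10.4. Next came chr16:48498001-48498600, a short island of 600 bp with 268 H3K64ac and 126 H3K27ac reads and a ratio of 2.22 (1.79 to 2.77). At chr11:68824201-68826400, 858 reads stood over 413, a ratio of 2.17 (1.93 to 2.45), inside an H3K122ac island of 7800 bp. The other 2 islands with high ratios were chr4:133395201-133398000, with 1401 reads over 709 and a ratio of 2.07 (1.89 to 2.27), and chr7:53151001-53154200, with 1511 over 782 and 2.02 (1.85 to 2.21). In all 5 the H3K122ac fold was between 6.32 and 10.4, against a median of 3.89 for islands that met H3K122ac. Among them only the first had an interval wholly above 2. As deposited, their log2 ratios were 1.34, 1.15, 1.12, 1.05 and 1.02 in the order given. With background taken off they were 0.92, 0.60, 1.28, 0.87 and 1.45, so the order among them depends on the measure.

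At the other end, chr12:91759001-91760200 held 102 H3K64ac reads per kb and 294 H3K27ac reads per kb over 76 background reads, a ratio of 0.362 (0.292 to 0.445). At chr19:40250201-40253600, 231 reads stood against 642, a ratio of 0.376 (0.322 to 0.438), and the H3K64ac density of 67.9 reads per kb was the lowest of all 1869 islands. The next were chr13:93106601-93107600 (132 against 349 reads), chr10:3139601-3142400 (271 against 694) and chr9:110064801-110066400 (140 against 351), with ratios of 0.396, 0.408 and 0.417. H3K64ac was barely enriched on these 5 islands, with folds of 1.18 to 1.48, while their H3K27ac folds were 1.49 to 2.13. Their log2 ratios were -1.47 to -1.26 as deposited and -3.42 to -2.98 with background taken off. The values with background taken off rest on small H3K64ac remainders, and no interval was computed for them. H3K122ac was met on 4 of the 5, with folds of 2.02 to 3.68, and not on the chromosome 9 island. The low-ratio islands that were identical in all lists were chr13:5358401-5359600, with a ratio of 0.426 (0.342 to 0.528), and chr2:126341001-126341800, with a ratio of 0.433 (0.343 to 0.542). Their H3K122ac folds were 3.07 and 4.40. H3K64ac density was 390 to 579 reads per kb in the 5 islands of highest ratio and 67.9 to 132 in the 5 of lowest ratio. H3K27ac densities were 188 to 253 reads per kb in the 5 highest and 189 to 349 in the 5 lowest. These values describe islands picked by their ratio, which the same reads set, and support nothing beyond it.

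The longest island, chr8:129074401-129084400, spanned 10000 bp in all lists and held 2441 H3K64ac reads and 2510 H3K27ac reads, a ratio of 1.02 (0.962 to 1.08). Of the other long islands, chr11:63265601-63274200 (8600 bp) had 3041 and 2272 reads and a ratio of 1.40. The islands chr2:146123401-146131000 (7600 bp) and chr13:59753801-59761200 (7400 bp) both had a ratio of 1.15. Most reads over both marks lay on chr8:10660401-10667800, with 3495 H3K64ac and 2085 H3K27ac reads and a ratio of 1.75 (1.66 to 1.85). These 5 long or read-rich islands had ratios above 1, the first with an interval that includes 1. The pick for most reads counts the H3K64ac reads that also set the ratio. All 5 met H3K122ac, beside 95.6% of all identical islands. With background taken off, 2 of the 5 fell below 1, with log2 ratios of -0.25 for chr8:129074401-129084400 and -0.26 for chr2:146123401-146131000.

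The islands that were highly enriched in both marks had low background. At chr19:57852401-57853600 the folds were 12.9 for H3K64ac and 9.06 for H3K27ac, from 279 and 396 reads over 20 background reads, and the ratio was 0.737 (0.630 to 0.861). At chr10:55010001-55011600 the folds were 14.9 and 6.98 over 20 background reads, with H3K122ac at a fold of 18.8 on the same ends. At chr14:85217001-85217600 they were 14.3 and 6.61 over 11 background reads, with H3K122ac at 16.3, and at chr6:12193601-12195200 they were 12.1 and 6.14 over 26 background reads. Background density on these islands was 12.5 to 18.3 reads per kb, against a median of 62.9. Because 1 background count enters every fold of an island, the part of the low background in these folds was not tested. Read densities on the same islands were within the range of the other islands. They were 202 to 283 reads per kb for H3K64ac, against a median of 168 over all identical islands. For H3K27ac they were 191 to 330, against a median of 218.

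Islands just outside the rule gave similar values. In 2806 pairs that met only each other, 1 end was shared and the other differed by 1 window of 200 bp. By read density their median log2 ratio was -0.35 (95% interval -0.37 to -0.32) and their median length 1400 bp. The remaining 23044 pairs that met only each other had a median log2 ratio of -0.44 (-0.45 to -0.43) and quartiles of -0.80 and -0.04. In 74.1% of these remaining pairs the H3K64ac island was the longer, with median lengths of 2600 bp for H3K64ac and 1600 bp for H3K27ac. Over all 25850 pairs with unlike ends, 0.186% had a density ratio of 2 or more and 12.8% a ratio of 0.5 or less, beside 0.321% and 3.26% of the identical islands. Scaled to the library ratio, the shares were 20.6% and 0.135% of these pairs, beside 21.5% and 0% of the identical islands. Centred on the median of the identical islands they were 1.89% and 3.69%, beside 2.14% and 0.161%. Read densities of these pairs are averages over unlike stretches, which identical islands avoid, and the part of this in the difference was not tested.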

How the data were processed

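Chromatin immunoprecipitation reads of mESC were analysed from the deposited island lists. The submitters' processing notes list SICER 1.1, Bowtie 0.12.8 and HOMER 4.3, without roles, and mm9 as the mouse build. Per the file labels, islands were called on merged replicates with windows of 200 bp at a false discovery rate of 0.01. Gaps of up to 600 bp were allowed for H3K64ac and H3K122ac and of up to 200 bp for H3K27ac. The deposited lists give whole-number read counts per island for ChIP and background, not normalized by the authors. The deposited fold is a ratio of these counts divided by 1 constant per list (1.08 for H3K64ac and 2.19 for H3K27ac), with a background of 0 entered as 0.25. The deposited q-values (adjusted p-values) are the authors' and served only as a filter. The totals were 38692934 reads in islands for H3K64ac and 40473895 for H3K27ac; library totals were not used here.

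Ratios, medians with order-statistic 95% intervals, exact binomial intervals of single ratios and overlaps were computed with Python 3.11.15, numpy 2.4.6, pandas 2.3.3 and scipy 1.17.1 and tested on simulated data. Background was taken off as ChIP reads divided by the constant, minus background reads, and the ratio then used the sum of this over each list. Samples were grouped by their titles. Named islands, from the 1693 with at least 100 reads in each list and 10 in background, were the 5 of highest and 5 of lowest ratio, the 4 longest, the 4 whose smaller fold was highest and the 2 with most reads. Among islands identical in all lists, the 2 of highest ratio, the 2 of lowest and the 2 with the highest smallest fold were also named. The islands and comparisons were chosen with earlier results of these data known, and the H3K122ac quartiles and the surroundings after seeing these values. The K562 lists were not used.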

Additional observations from a re-analysis of the deposited data

How the results depend on the processing

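The 9 results were recomputed under alternatives that gave 94 values. Of these, 59 kept their direction and stayed within their 95% interval, or within 1.5 times a count, 33 moved further and 2 reversed. Scaling to sums over numbered chromosomes, scaling to the library ratio and centring each add 1 constant to every log2 ratio. The differences by length, background, H3K122ac, chromosome and ends could therefore not change under these settings. Their unchanged values are counted among the 59 but say nothing about robustness. Scaled to the library ratio, the median log2 ratio reversed to 0.63, with 402 islands 2-fold higher in H3K64ac and 0 in H3K27ac. Centred on the median it was 0, with 40 and 3 islands. With background-subtracted reads the median was -0.65, with 55 and 595 islands; the difference by length was 0.59, by background 0.45 (reversed) and by H3K122ac 0.70, and islands just outside the rule differed from identical ones by 0.035 in place of -0.030. With ends within 200 bp there were 5754 islands, 18 and 237 of them 2-fold higher in H3K64ac and in H3K27ac, and differences of 0.31 by length and -0.091 by background. With 90% of both islands overlapping there were 3185 islands, a median of -0.25, 18 and 121 islands past 2-fold, and differences of 0.33 by length and 0.57 by H3K122ac. At a q-value of at most 1e-10 in both lists, 943 islands remained, with a median of -0.18, 9 islands 2-fold higher in H3K27ac, and differences of 0.31 by length and -0.030 by background. A fold of 1.5 gave 62 and 510 islands, a fold of 3 gave 0 and 0, and requiring the exact interval to lie past 2-fold gave 1 and 5. The cause of these shifts was not tested beyond what the settings themselves change. Sums over numbered chromosomes, the minimum of 100 reads, adding X and leaving out the top 1% of background moved none of the 9 results out of its range. Of 84 values for the named islands, 26 stayed within the island's exact interval, 56 moved out of it and 2 reversed. By sign alone, 6 of the 84 changed, 4 of them on islands whose exact interval already included a ratio of 1, all with background-subtracted reads. The other 2 reversed: chr19:57852401-57853600 had a log2 ratio of 0.51 when scaled to the library ratio, and chr2:146123401-146131000 one of -0.26 with background-subtracted reads. No paired analysis was possible because the authors merged the replicates before calling islands, and for the same reason no replicate could be left out. Depth limits single ratios: the exact 95% interval spanned a median of 0.54 on the log2 scale.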

Other observations

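The ratio of an island was only weakly related to the ratio of summed reads in the called islands around it. For the 1609 identical islands with other islands of both marks within 50 kb, the summed reads of those other islands gave a log2 ratio for the surroundings. This is not the same measure as the ratio over identical bases. It follows the number and length of the islands called in each list, and it ran from -4.98 to 3.97. Whether the ratio over the same bases is shared with the neighbourhood was not tested by it. Spearman's rho with the island's own log2 ratio was 0.09, and the median log2 ratio was -0.36 in the lowest quartile of surroundings and -0.23 in the highest. These points share both libraries, and the surroundings of neighbouring islands can overlap. In 92 neighbouring pairs of identical islands at most 50 kb apart, the log2 ratios differed by a median of 0.44, and in 1758 pairs further apart by a median of 0.41.

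Identical islands mostly lay far from one another. The median distance to the nearest other identical island was 389 kb, and 177 islands had one within 50 kb. These distances were not compared with a random placement, so the part of the small number of identical islands in them was not tested. Other islands were closer, with a median of 3 H3K64ac and 6 H3K27ac islands within 50 kb. A group of 57 islands had no other island of either mark within 50 kb. These had a median length of 800 bp, a median background of 45.0 reads per kb and median folds of 3.65 for H3K64ac and 2.35 for H3K27ac. All 57 met H3K122ac, beside 95.6% of all identical islands. A further 180 islands had other H3K27ac islands but no other H3K64ac island within that distance, with a median log2 ratio of -0.37, and 23 had H3K64ac islands only, with a median of -0.15.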
